A study of Mus musculus with 21 samples.

Results

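Oocytes of aged mice that had received LRP1low cells were compared with oocytes of untreated aged mice, across all genes. The comparison holds 2 Aged + LRP1low libraries and 2 Aged libraries, 4 of the 21 libraries of the series and 4 of its 12 oocyte libraries. They were chosen by their labels. The measure is FPKM, which scales the fragments on a gene by its length and by the total of the library.

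All mice of the groups used here were ICR females with no genetic change. Aged mice were 18 months old and received no cells. The Aged + LRP1low mice were also 18 months old, and 3 weeks before collection cells of the human umbilical cord, mesenchymal stem cells sorted for a low surface level of LRP1, were injected under the ovarian capsule. Further oocyte libraries came from 3 Young (6 to 8 weeks old), 2 Aged + Unsorted and 3 Aged + LRP1high samples. The last 2 groups received unsorted cells and cells with a high level of LRP1 at the same age and are called the other transplanted groups (5 libraries). The study sequenced these groups to look for how LRP1high cells act on the ovary. The oocytes, described as MII (arrested in the second metaphase of meiosis), were released from scraped ovaries, freed of granulosa cells with hyaluronidase and stripped of the zona pellucida with pronase. How many oocytes or mice stand behind a library was not given in the sources used here.

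The fully grown mouse oocyte lives on RNA that it stored while growing. This store holds mRNAs of the zona pellucida proteins, of the secreted factors GDF9 and BMP15, and of the proteins of the subcortical maternal complex that the early embryo needs. It also holds more mitochondria than other cells and does not express most genes of the ovary's somatic cells. An oocyte library is therefore recognised by a small set of very abundant mRNAs over many genes with little or no signal.

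Both Aged + LRP1low libraries lacked this pattern. The median FPKM of 10 oocyte marker genes was 5.02 and 7.77 in the Aged + LRP1low libraries, against 161 to 1001 in the 5 other transplanted libraries. The Aged libraries differed from each other, with 11.6 in replicate 1 and 716 in replicate 2. Of the Young libraries, replicate 1 was lower still, at 0.892, and replicates 2 and 3 had 84.9 and 595.

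Single markers showed the same order. Zp3, a protein of the zona pellucida, had an FPKM of 5.75 and 4.09 in the Aged + LRP1low libraries, 6.23 and 972 in Aged, and 128 to 1228 (median 667) in the other transplanted libraries. Gdf9, a growth factor that the oocyte secretes to its granulosa cells, had 9.66 and 27.2, against 9.04 and 1245 in Aged and 483 to 1815 in the others. H1foo, the linker histone of the oocyte, had 7.35 and 7.22, against 49.5 and 1962 in Aged and 575 to 2789. For each of these genes Aged + LRP1low and Aged replicate 1 lay below every other transplanted library, and Aged replicate 2 lay within their range. Bmp15, the partner of Gdf9, was listed at 0 in Aged + LRP1low replicate 2 and at 1.19 in replicate 1, against 10.5 and 378 in Aged. FPKM is relative to the total of the library. Fewer oocytes, less RNA per oocyte and more signal from other sources therefore cannot be told apart here.

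**Figure D1:**
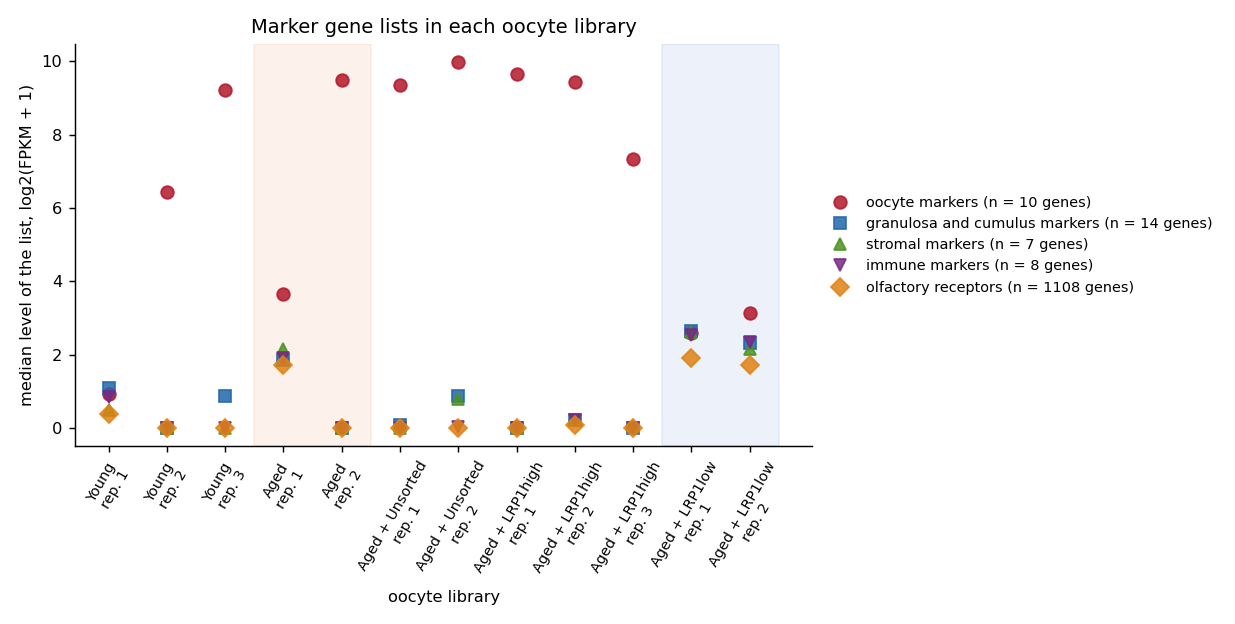
Median level of 5 marker gene lists, as log2(FPKM + 1), in each of the 12 oocyte libraries, with Aged shaded orange and Aged + LRP1low shaded blue. In both Aged + LRP1low libraries the oocyte markers (5.02 and 7.77 FPKM) lie close to the lists of other cell types, while in Aged replicate 2 they lie far above them (716 FPKM against 0).

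Markers of every other cell type examined had a similar low level in the Aged + LRP1low libraries. The median FPKM of 14 granulosa and cumulus cell markers was 5.21 and 3.97, with 0 of 14 listed at 0 in either library, against 5 and 10 of 14 in Aged. Of 7 stromal markers it was 5.17 and 3.47, of 8 immune markers 4.86 and 4.07, and of 4 endothelial markers 6.54 and 5.92. Luteal and thecal markers (7 genes) had 5.25 and 4.32, and 5 red blood cell markers 3.65 and 1.68. The summed FPKM of the granulosa list was 71.9 and 70.0 in Aged + LRP1low, 44.3 and 19.7 in Aged, 49.1 to 94.9 in Young and 0.307 to 28.2 in the other transplanted libraries. Its part in the results was not tested. Foxl2, which defines granulosa cells, had 5.96 and 5.19 (Aged 7.37 and 1.82), and Amh, their hormone of growing follicles, 7.73 and 6.66 (Aged 0 and 4.03). Olfactory receptor genes, a family of smell receptors that ovarian cells are not known to need, had a median of 2.76 and 2.30 over 1108 genes. They reached an FPKM of 1 for 97.1% and 83.6% of the family, against 64.0% and 14.4% in Aged and 0.271% to 2.08% in the other transplanted libraries.

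The level of a gene in the Aged + LRP1low libraries hardly followed its level in oocytes that received other cells. Nuclear protein-coding genes were put into 5 ranges by their median FPKM in the other transplanted libraries. In the lowest range (up to 0.1, 10972 genes) the median FPKM was 4.12 and 2.98 in Aged + LRP1low, and in the highest (over 100, 554 genes) it was 6.14 and 6.12. Aged replicate 1 went from 2.72 to 13 and Aged replicate 2 from 0 to 144 over the same ranges. Young replicate 1 also stayed low, from 0.677 to 2.29, while Young replicates 2 and 3 went from 0 to 29.6 and 177. Of the 554 genes, 439 (79.2%) and 413 (74.5%) stood under 10 FPKM in Aged + LRP1low, against 218 (39.4%) and 2 (0.361%) in Aged. In Young replicates 1, 2 and 3 they were 527 (95.1%), 202 (36.5%) and 2 (0.361%). Between 1 and 20 FPKM lay 95.7% and 89.3% of the 21385 nuclear protein-coding genes, against 70.4% and 26.2% in Aged and 54.2%, 7.64% and 31.0% in Young. Across the 28004 genes tested, Spearman's rho of Aged + LRP1low replicate 1 with the other transplanted libraries was 0.173 to 0.280 and that of replicate 2 was 0.128 to 0.194. It was 0.00145 to 0.0868 for Aged replicate 1 and 0.526 to 0.627 for Aged replicate 2. The 2 Aged + LRP1low libraries had a rho of 0.383 with each other. Young replicate 1 had 0.409 with Aged + LRP1low replicate 1, which is higher, and 0.231 with replicate 2. Genes share the library and its depth, so these are descriptions.

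**Figure D2:**
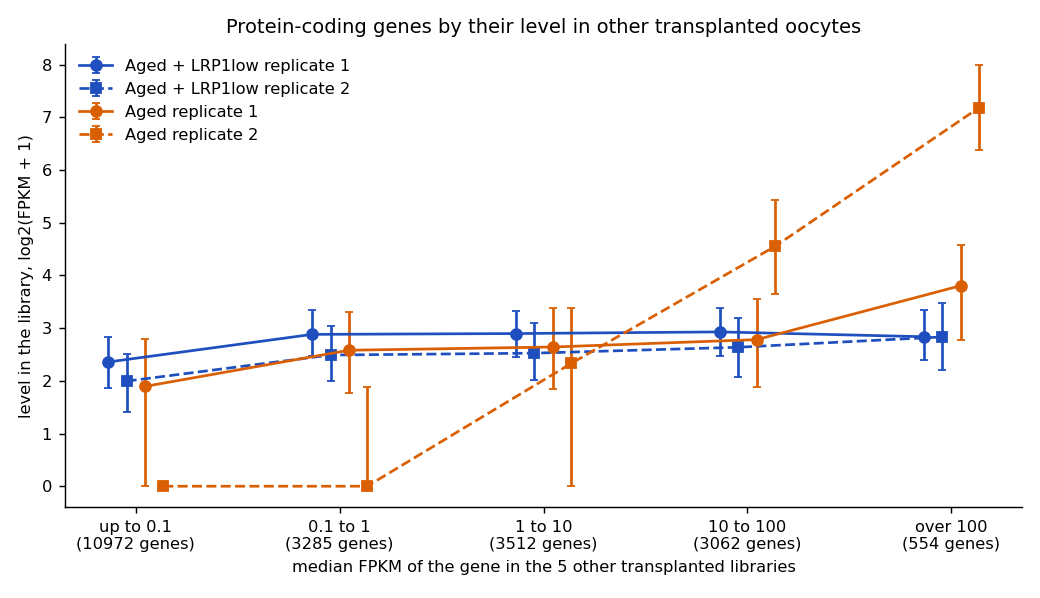
Median level (points) and quartiles (bars) of nuclear protein-coding genes, as log2(FPKM + 1), in the Aged and Aged + LRP1low libraries, for 5 ranges of their median FPKM in the 5 other transplanted libraries. The 2 Aged + LRP1low lines stay nearly level from 4.12 and 2.98 FPKM to 6.14 and 6.12 FPKM, while Aged replicate 2 rises from 0 to 144 FPKM. Young libraries are not drawn.

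The flat level extended to genes that make no mRNA. An FPKM of at least 1 was reached by 96.5% and 90.2% of 21398 protein-coding genes in Aged + LRP1low, by 83% and 60.7% of 9934 processed pseudogenes and by 85.1% and 60.2% of 5604 lincRNA genes. Small nuclear RNA genes (1383) reached it for 67.5% and 38.7%, and microRNA genes (2202) for 58.5% and 32.0%. In Aged the same shares were 74.5% and 38.4% for protein-coding genes, 34.9% and 9.17% for processed pseudogenes, 35.7% and 6.46% for lincRNA, 15% and 2.17% for small nuclear RNA and 15.7% and 2.36% for microRNA genes. For each of these types both Aged + LRP1low libraries stood above every other oocyte library.

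Depth was lowest in the same libraries. Over genes with a single exon and transcript, the ratio of deposited coverage to FPKM gave 0.515 and 0.278 gigabases of aligned sequence in Aged + LRP1low, 0.578 and 0.791 in Aged, and 0.984 to 3.15 in the other transplanted libraries. For such genes, 1 FPKM in Aged + LRP1low replicate 2 stands for a mean read depth of 0.278, and for other genes this ratio need not hold. No read counts were used, so no counting error is given. Genes resembling the satellite-like Gm10800 took 42.4% and 63.6% of all FPKM in Aged + LRP1low, 48.6% and 19.7% in Aged and 0.0111% to 3.17% in the other transplanted libraries. Young replicate 1 had 88.4%. The part of depth and of these repeats in the results was not tested.

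**Figure D3:**
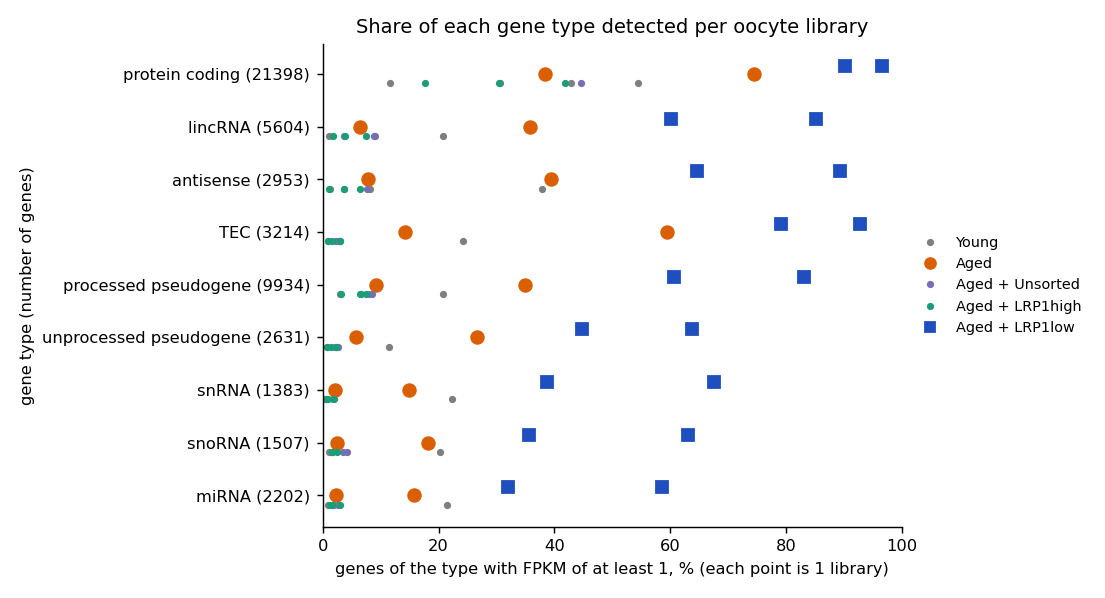
Share of the genes of 9 annotated types with an FPKM of at least 1, in percent; each point is 1 oocyte library and the number of genes stands beside the type. Both Aged + LRP1low libraries (blue squares) lie right of all others in every type, for example at 58.5% and 32.0% of microRNA genes.

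Of 28004 genes tested, 866 (3.09%) were called higher in Aged + LRP1low than in Aged and 21 (0.075%) lower. A call needed a change of more than 1.5-fold together with an adjusted p below 0.05, from limma with Benjamini-Hochberg adjustment on log2(FPKM + 1), with all 12 oocyte libraries in the fit. The adjusted p of the calls lay between 0.0421 and 0.0498, near the threshold. Under quantile normalization the split of the calls became 190 higher and 38 lower, or 83.3% higher against 97.6%. The median log2 change of all genes tested was 0.68 as deposited and -0.05 under quantile normalization. An exact permutation test of 2 libraries against 2 cannot give a two-sided p below 0.333, so single genes were tested in the fit alone. Both Aged + LRP1low libraries stood above both Aged libraries in 27.1% of the genes tested and below both in 9.55%.

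The genes called higher could pass the filter on low values in 1 way only. Without the Aged + LRP1low libraries, 1 of the 866 would have kept a mean FPKM of 1 or more over the remaining 10. The others were tested because they were high in that group, so their number and the p-values given for them below support nothing. Of the 866, 846 were listed at 0 in both Aged libraries and 20 in 1 of them, and 827 stood under 1 in all 5 other transplanted libraries. Since many genes that every cell uses were also listed at 0 in Aged, among them 20 and 5 of 91 cytosolic ribosomal protein genes, no fold change is given against such a 0. The genes called higher were short, with a median exonic length of 457 bases against 2482.5 bases over all genes tested. Genes listed at 0 were short as well, with a median length of 828.5 bases in Aged replicate 1 against 3023 for the genes above 0. By type they were 220 processed pseudogenes, 176 protein-coding genes, 103 lincRNA, 68 microRNA, 50 antisense, 48 small nuclear RNA and 44 small nucleolar RNA genes. This is 1.08% of the protein-coding genes tested, 6.21% of the processed pseudogenes, 12.4% of the microRNA genes and 13.3% of the small nuclear RNA genes.

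The 10 genes with the largest change upward held 1 protein-coding gene and 9 noncoding genes. The antisense gene Gm13165 had an FPKM of 38.8 and 26.7 in Aged + LRP1low and 0 in both Aged libraries (adjusted p = 0.0421 by limma). It lies on chromosome 4 (146167522 to 146205732 of GRCm38), over exons of Zfp600 on the opposite strand. Cmtm7, a membrane protein of the chemokine-like factor family, had 17.4 and 16.4, 0 in Aged and at most 0.263 in the other transplanted libraries (adjusted p = 0.0421 by limma), on chromosome 9 (114756836 to 114781856). Its 2 groups do not overlap. The deposited coverage of Cmtm7, which has several exons, was only 1.27 and 0.392, well under what the ratio of single-exon genes would give for its FPKM.

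Among these 10 genes were 6 annotated as microRNA genes, of which 4 have an entry in RefSeq. A microRNA pairs with its target mRNAs through its seed, bases 2 to 8, here in capitals. The values are FPKM over the hairpin gene in a library of longer RNA, so they give no level of the mature microRNA and no arm. The sequences are shown because these genes lead the list, from RefSeq on GRCm38.p6, each 5′ to 3′ with 1 arm of each gene, the last 2 being the genes that fell.
mmu-miR-339-5p: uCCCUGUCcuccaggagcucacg
mmu-miR-29a-3p: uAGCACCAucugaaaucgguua
mmu-miR-210-3p: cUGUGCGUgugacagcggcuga
mmu-miR-6934-5p: uUGGUGGAgacagcaagggugg
mmu-miR-3094-5p: uGUUGGGGacauuuuuaaagc
mmu-miR-6962-5p: aAGGACCUggugggagaucu
No seed is shared among these 6. Mir339, in an intron of 3110082I17Rik on chromosome 5 (139369650 to 139369745), had an FPKM of 21.5 and 24.6 in Aged + LRP1low. Mir29a, which overlaps no other annotated gene on chromosome 6 (31062660 to 31062747), had 13.9 and 25.2, and Mir210, known as a microRNA of the response to low oxygen, had 14.8 and 20.4 on chromosome 7 (141221384 to 141221493). All were at 0 in both Aged libraries and at most 0.0325 in the other transplanted libraries, with an adjusted p of 0.0421 by limma. Mir6934, in an intron of Tbc1d16, was uneven, at 7.70 and 30.2, and its highest value in the other transplanted libraries was 0.225. The mean read depth over these 4 hairpins was 3.97 to 11.1 in replicate 1 and 5.67 to 8.39 in replicate 2. Of the 68 microRNA genes called higher, 39 matched an entry in RefSeq.

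The 15 protein-coding genes with the largest change upward have varied roles. Cd86, a costimulatory protein of antigen-presenting cells, had an FPKM of 9.81 and 12 in Aged + LRP1low and 0 in both Aged libraries. Pglyrp1, a secreted protein that binds bacterial peptidoglycan, had 10.9 and 15.5, Gna15, a G protein subunit of blood cells, 10.2 and 11.1, and Olfr139, an olfactory receptor, 13.2 and 18.0. The remaining 11, among them Crxos, Cblc, Gpr25, Acbd4 and Rasgrp3, had 8.11 to 19.2 in Aged + LRP1low and at most 0.422 in Aged. All 15 were also called higher against the other transplanted groups, as were 865 of the 866 genes and 35.4% of all genes tested. The other transplanted libraries did not exceed 1.02 FPKM in any of the 15. Both comparisons use the same Aged + LRP1low libraries, so the second call is no separate evidence.

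**Figure D4:**
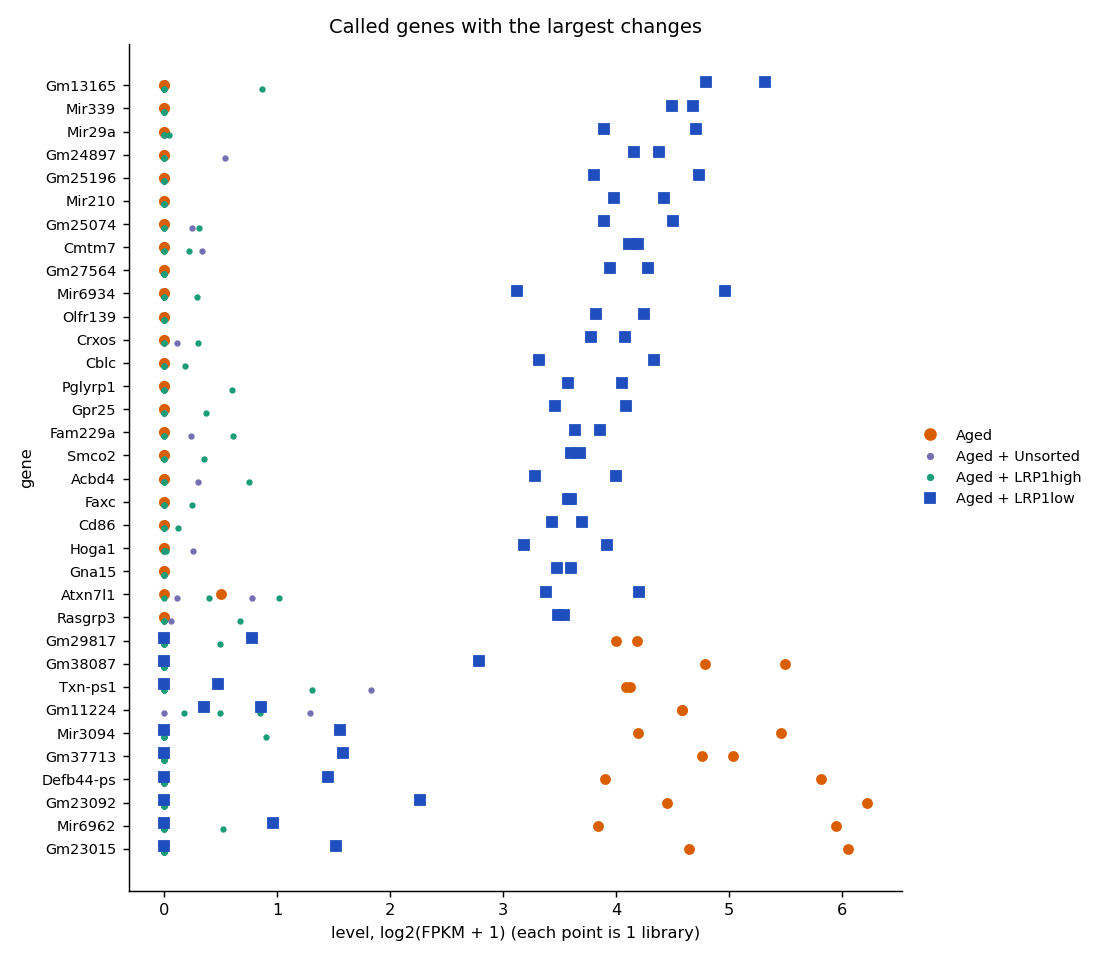
Level, as log2(FPKM + 1), of the called genes with the largest changes in the Aged, Aged + Unsorted, Aged + LRP1high and Aged + LRP1low libraries; each point is 1 library and Young is not shown. In the upper 24 genes both Aged + LRP1low libraries stand apart from all others, and in the lower 10 genes both Aged libraries do.

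The 21 genes called lower were high in both Aged libraries, and 19 of them stood under 1 FPKM in all 5 other transplanted libraries. Without the Aged libraries 0 of the 21 would have kept a mean FPKM of 1 or more over the remaining 10, so they were tested because they were high in Aged, and their number and the p-values below support nothing. None is protein-coding: 8 are processed and 4 unprocessed pseudogenes, 3 microRNA genes, and 6 are other noncoding genes. Their median FPKM was 15 and 17.2 in Aged, 1.04 and 0 in Aged + LRP1low, and 0 in each other transplanted library. Against the other transplanted groups 0 of the 21 were called lower. Mir3094, in an intron of Nfx1 on chromosome 4 (40993695 to 40993758), had 17.3 and 43.1 in Aged and 1.94 and 0 in Aged + LRP1low. It fell by 4.05 on the log2 scale (standard error 0.78, adjusted p = 0.0421 by limma). Mir6962, in an intron of Acvr1b, had 60.5 and 13.3 in Aged and 0.955 and 0 in Aged + LRP1low, a fall with a log2 change of -4.41 (standard error 0.91). Txn-ps1, a processed pseudogene of thioredoxin, had 16.0 and 16.4 in Aged and 0.396 and 0 in Aged + LRP1low. Its copy of the thioredoxin sequence can share reads with the parent gene, so its value is uncertain. Defb44-ps, an unprocessed defensin pseudogene, had 14.0 and 55.3 against 1.74 and 0.

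None of the genes of the oocyte's own programme passed the test against Aged, where 0 of 10 oocyte markers, 0 of 8 genes of the subcortical maternal complex and 0 of 21 genes of maternal mRNA storage and decay were called. At an unadjusted p under 0.05, 1, 1 and 5 of them were lower and 0 higher. Their median log2 changes were -3.53, -3.57 and -2.15, beside 0.68 over all genes tested, and the change was negative for 10 of 10, 8 of 8 and 17 of 21 members. In 6 of the 10 oocyte markers both Aged + LRP1low libraries lay below both Aged libraries, against 9.55% of all genes tested. The size of these medians rests on Aged replicate 2. Against Aged replicate 2 alone the medians were -6.41, -5.64 and -3.82 (all genes 1.87), and against Aged replicate 1 alone -0.71, -1.08 and -0.99 (all genes -0.05). Under quantile normalization they were -3.49, -3.57 and -2.40. Ooep, a member of the complex, had 3.30 and 8.35 in Aged + LRP1low and 12.7 and 459 in Aged (log2 change -3.65, standard error 2.2, adjusted p = 0.521 by limma). Nlrp5, which the complex also needs, had 4.76 and 34.0 against 1.74 and 136, so that its groups overlap. Spin1, a chromatin reader of the oocyte, came nearest among the named oocyte genes, with 4.33 and 4.11 against 405 and 1050 (log2 change -6.97, standard error 2.10, adjusted p = 0.111 by limma). Under quantile normalization its adjusted p was 0.0412, a call.

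The genes that carry the meiotic cell cycle, oocyte transcription and maternal chromatin also had 0 calls, over 20, 9 and 13 genes tested. At an unadjusted p under 0.05 there were 0, 0 and 0 lower and 0, 1 and 1 higher. Their medians were -0.92, -0.26 and -1.26, and all turned above 0 against Aged replicate 1 alone (0.30, 0.16 and 0.10). Ccnb1, a cyclin of M phase, had 7.58 and 8.90 in Aged + LRP1low and 5.73 and 218 in Aged. Mos, the kinase that holds the egg in metaphase, had 5.27 and 0.373 against 2.17 and 150. In both genes the 2 Aged libraries differed from each other by more than the groups did.

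**Figure D5:**
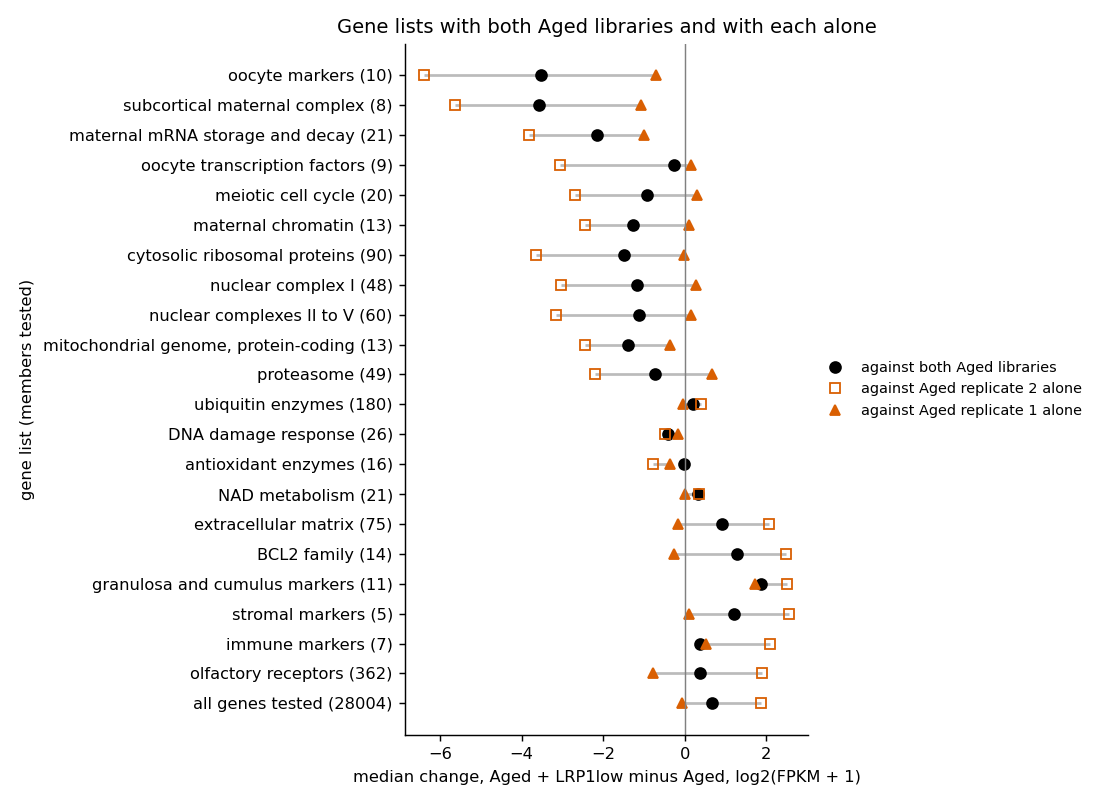
Median log2 change, Aged + LRP1low minus Aged on the log2(FPKM + 1) scale, of 21 gene lists and of all genes tested, against both Aged libraries (circles), Aged replicate 2 alone (squares) and Aged replicate 1 alone (triangles). Oocyte lists lie left of 0 with replicate 2 alone (-6.41 for oocyte markers). With replicate 1 alone they lie closer to 0 (-0.71 for oocyte markers), from -1.08 for the subcortical maternal complex to 0.30 for the meiotic cell cycle.

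Genes of translation and respiration followed the same order. Of 90 cytosolic ribosomal protein genes tested 0 were called, with a median log2 change of -1.49 that was -3.65 against Aged replicate 2 and -0.02 against replicate 1. Rpl35, a protein of the large subunit, had 6.76 and 6.60 in Aged + LRP1low and 30.9 and 466 in Aged (adjusted p = 0.404 by limma). Of 48 nuclear complex I genes and 60 genes of complexes II to V 0 were called, with medians of -1.18 and -1.11, of which both were above 0 against Aged replicate 1 alone (0.29 and 0.16). Of 49 proteasome genes 0 were called (median -0.72, and 0.67 against Aged replicate 1). At an unadjusted p under 0.05, the ribosomal, complex I, complex II to V and proteasome lists had 2, 0, 3 and 0 genes lower and 0, 2, 3 and 1 higher. Of 16 antioxidant genes 0 were called (0 higher and 1 lower at an unadjusted p under 0.05). Sod1, the copper-zinc superoxide dismutase, had 6.22 and 36.5 against 236 and 3951 in Aged (log2 change -5.88, standard error 2.37, adjusted p = 0.269 by limma).

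Genes of the mitochondrial genome had a high FPKM in Aged + LRP1low. The median FPKM of the 13 protein-coding genes was 436 and 359 in Aged + LRP1low, 537 and 2189 in Aged and 43.5 to 423 in the other transplanted libraries. Young replicates 1, 2 and 3 had 692, 62.2 and 310. The log2 change against Aged was negative for all 13, with a median of -1.39, 0 calls by limma and 0 at an unadjusted p under 0.05. The median was -0.15 under quantile normalization, -2.45 against Aged replicate 2 and -0.36 against replicate 1. mt-Nd1, a subunit of complex I, had 612 and 528 in Aged + LRP1low and 823 and 3020 in Aged (log2 change -1.47, standard error 1.33, adjusted p = 0.682 by limma). mt-Nd3 had 137 and 148 against 261 and 1239. Both Aged + LRP1low libraries lay below both Aged libraries in 9 of the 13 genes, against 9.55% of all genes tested. The 22 tRNA genes of the mitochondrial genome, which lie between the coding genes, had a median FPKM of 462 and 450 in Aged + LRP1low, as high as the coding genes. They had 605 and 2195 in Aged, 4.01 to 84.1 in the other transplanted libraries and 874, 20.9 and 1.22 in Young replicates 1, 2 and 3. The 2 rRNA genes had 577 and 663 in Aged + LRP1low, 702 and 3782 in Aged and 263 to 1678 in the other transplanted libraries. Whether this signal came from RNA was not tested.

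The pathways that the study followed in aging oocytes held 0 calls against Aged. Of 75 extracellular matrix genes, collagens, laminins, integrins and some genes named for integrin binding, 0 were called against Aged. Their median log2 change of 0.91 was 2.07 against Aged replicate 2 alone, -0.16 against replicate 1 alone and 0.14 under quantile normalization. Col1a2, a chain of type I collagen, had 13.5 and 13.9 in Aged + LRP1low and 5.78 and 0.447 in Aged (adjusted p = 0.186 by limma). Of 180 ubiquitin enzymes, 26 DNA damage response genes and 21 genes of NAD metabolism 0 were called, with medians of 0.20, -0.41 and 0.32. At an unadjusted p under 0.05 the 4 lists had 5, 8, 0 and 1 genes higher and 0, 0, 0 and 1 lower. The list given with the study for its aging score held 580 genes here, a number that differs from the one in its text. Of these 10 were called lower (1.72%) and 0 higher, beside 0.075% and 3.09% of all genes. The study chose the score genes as different between its Young and Aged oocytes, which include these Aged libraries, so the count is no independent evidence of a direction. Their median FPKM was 8.32 and 6.12 in Aged + LRP1low, 13.3 and 12.9 in Aged and 0.107 to 3.88 in the other transplanted libraries.

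Of 17 genes named in the study 0 were called against Aged (0 higher and 1 lower at an unadjusted p under 0.05), with a median log2 change of -0.81. In 11 of them both Aged + LRP1low libraries lay below both Aged libraries, against 9.55% of all genes tested. The study drew the genes it checked in oocytes from those different between its Young and Aged oocytes. These Aged libraries are part of that choice, so the count of 11 is no independent evidence of a fall. Rptor, the mTOR complex subunit that recruits its substrates, had 14.3 and 14.6 in Aged + LRP1low, 11.4 and 12.7 in Aged and at most 3.03 in the other transplanted libraries. Nmnat3, an enzyme of mitochondrial NAD synthesis, had 15.1 and 11.5, against 7.35 and 19.5 in Aged. Utrn, which links the cytoskeleton to the matrix, had 10.6 and 11.2 against 29.0 and 13.4. The log2 changes were 0.25 (standard error 0.88), 0.12 (standard error 0.77) and -0.81 (standard error 0.72), none past the test.

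Gene families that ovarian cells are not known to use held calls upward only, the direction of 97.6% of all calls. Over all genes tested 3.09% were called higher. Nearly all genes called higher were tested because they were high in Aged + LRP1low, so the counts below are descriptions. Of 362 olfactory receptors tested 7 (1.93%) were called higher, with a median log2 change of 0.37 that was -0.55 under quantile normalization and -0.78 against Aged replicate 1 alone. Of 78 vomeronasal receptors, which sense pheromones, 2 (2.56%) were called higher, Vmn1r17 (11.5 and 6.98 FPKM) and Vmn1r64 (5.90 and 5.78), both listed at 0 in Aged. Of 35 keratin-associated and defensin genes 4 (11.4%) were called higher, all of them defensins, which are antimicrobial peptides. Defb30 had 6.33 and 9.70, and Defa24 had 6.99 and 6.63, with 0 in both Aged libraries. The medians of the vomeronasal and of the keratin-associated and defensin lists were 0.68 and 0.96, and -0.31 and -0.06 under quantile normalization.

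Among the other lists, 1 of 14 BCL2 family genes was called higher (median 1.28, and -0.25 against Aged replicate 1 alone), as was 1 of 7 immune markers (median 0.38). Over all genes tested the share was 3.09%, from which 1 call in so short a list cannot be told apart. Both called genes were listed at 0 in both Aged libraries. Of 11 granulosa and cumulus, 5 luteal and thecal, 5 stromal, 4 endothelial and 2 red blood cell markers tested 0 were called, with medians of 1.87, 0.97, 1.20, 1.09 and 0.49 and 3, 0, 1, 0 and 0 genes higher at an unadjusted p under 0.05. The luteal and endothelial medians were -0.14 and -0.15 against Aged replicate 1 alone, and that of the red blood cell markers -1.47 against Aged replicate 2 alone. Under quantile normalization the luteal and red blood cell medians were -0.06 and -0.18. Of 12 mitochondrial dynamics genes, 22 tRNA and 2 rRNA genes of the mitochondrial genome and 12 satellite-like genes 0 were called (medians -0.45, -1.34, -1.39 and 0.83), with 0, 1, 0 and 0 lower at an unadjusted p under 0.05.

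A second comparison asked what was particular to Aged + LRP1low among the transplanted groups, setting it against the average of Aged + Unsorted and Aged + LRP1high, and it does not use the Aged libraries in the contrast. Here 9902 genes (35.4%) were called higher and 674 (2.41%) lower, with a median log2 change of 1.80 over all genes. Of the oocyte markers 8 of 10 fell, by a median over the list of -6.37, as did 5 of 8 genes of the subcortical maternal complex (median -5.44) and 13 of 21 of mRNA storage and decay (median -4.33). Zp3 fell with a log2 change of -6.62 (standard error 2.19, adjusted p = 0.0386 by limma), Gdf9 with -6.16 (standard error 1.96, adjusted p = 0.0352 by limma) and Bmp15 with -8.34 (standard error 1.96, adjusted p = 0.0164 by limma). Of the 10 markers, Nlrp5 and Zp2 did not pass, and Nlrp5 had a log2 change of -3.21 (adjusted p = 0.16 by limma). Of the ribosomal protein genes 20 of 90 fell and 1 rose, of complexes II to V 17 of 60 fell and 3 rose, and of complex I 4 of 48 fell and 1 rose. Under quantile normalization 3, 5 and 0 of them were called lower.

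Under quantile normalization the second comparison gave 900 genes higher and 282 lower, with the median of all genes near 0. Of the oocyte markers 2 of 10, of the maternal complex 1 of 8 and of the storage and decay genes 8 of 21 were then called lower, with medians of -6.39, -5.28 and -4.67. Leaving out either Aged + LRP1low library left 1 gene called lower, and leaving out Aged + Unsorted replicate 1 left 32.

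The genes called higher in the second comparison included 46 of 75 extracellular matrix genes, 4 of 11 granulosa and cumulus markers, 3 of 5 stromal, 3 of 7 immune markers and 184 of 362 olfactory receptors tested, beside 35.4% of all genes. Their median log2 changes of 2.26, 2.16, 2.51, 2.38 and 2.01 lay near the 1.80 of all genes, and under quantile normalization they were 0.15, 0.11, 0.31, 0.92 and -0.10, with 4, 0, 1, 0 and 1 calls. Many of these genes too passed the filter on low values through the Aged + LRP1low libraries, so the counts are descriptions. Col1a2 was higher with a log2 change of 3.66 (standard error 0.66). It passed the filter only through the Aged + LRP1low libraries, so its call supports nothing and no p-value is given. Amh rose with 3.01 (standard error 0.84, adjusted p = 0.0253 by limma). C1qa, a complement protein of macrophages, was the only immune marker called against Aged, with 5.50 and 12.4 in Aged + LRP1low and 0 in both Aged libraries. Of the mitochondrial protein-coding genes 0 of 13 were called, with a median log2 change of 1.57. Of the 17 genes named in the study 6 were called higher here, beside 35.4% of all genes. Rptor, Nmnat3 and Utrn were among the 6, with log2 changes of 3.05, 3.35 and 2.57.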

How the data were processed

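For each library the authors aligned reads with HISAT2 2.2.1 and quantified genes with StringTie 1.3.3b, and deposited 3 values for 55335 gene identifiers. The deposited FPKM was analysed and summed over repeated identifiers (3 to 14 per library). The deposited TPM was an alternative, and the deposited coverage, the mean read depth over a gene, gave the depth over 21693 genes with a single exon. The submitters' notes name mm9, but 54577 identifiers carry the coordinates of GENCODE M21 on GRCm38, which was used. The labels name a stranded KAPA kit and the study's methods Smart-seq2, so which applies is not settled. The labels call the replicates biological.

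The 28004 genes whose mean over the 12 oocyte libraries reached 1 FPKM were tested with limma 3.58.1 in R 4.3.3 on log2(FPKM + 1), which understates the change of low genes. All 5 groups were in 1 model, p-values were adjusted by Benjamini-Hochberg, and a call needed a change of more than 1.5-fold with an adjusted p below 0.05, as in the study. The fit was run on simulated data of independent genes with normal noise. Those data held no differences between libraries in depth or in genes listed at 0, so the run says nothing about such differences. The members, the lists and the tests were chosen with earlier results of these data known.

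Named genes were up to 10 called genes and 15 called protein-coding genes with a usual symbol in each direction by size of change, up to 4 called members of each of 31 lists or else the 2 most abundant, the oocyte, granulosa and mitochondrial protein-coding lists, and genes named in the study, of which the text gives some. Alternatives changed the pseudocount, filter, unit, scaling, model and libraries.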

Additional observations from a re-analysis of the deposited data

How the results depend on the processing

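The count of 866 higher and 21 lower genes against Aged depended on most choices tried, and each cause was not tested. A pseudocount of 0.1, a mean FPKM of at least 10, protein-coding genes alone, the 4 libraries alone and a scaling to protein-coding genes without the satellite-like genes (added after seeing the data) each gave 0 and 0 by limma, with 3271 and 117, 4 and 107, 1204 and 114, 2727 and 253, and 3601 and 173 at an unadjusted p under 0.05. Without a filter 11612 and 194 were called, with protein-coding scaling 1657 and 37, by quantile normalization 190 and 38, with a trended robust fit 1304 higher, with a pseudocount of 5 74 lower, and without adjustment 3695 and 267. Leaving out 1 library gave 0 to 8528 higher and 0 to 1289 lower. It gave 0 without any 1 of Young replicate 2 or 3 and the 5 other transplanted libraries (3287 to 3585 higher and 207 to 401 lower without adjustment), 8528 and 577 without Aged replicate 1, 1379 and 1289 without Aged replicate 2, 2196 and 95 without Young replicate 1, and 50 and 10 lower without Aged + LRP1low replicate 1 and 2.

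Against the other transplanted groups (9902 higher, 674 lower), no filter gave 24777 higher, a mean of at least 10 gave 30 and 294, quantile normalization 900 and 282, protein-coding genes alone 3801 higher, a pseudocount of 0.1 394 lower, scaling without satellite-like genes 353 lower, fewer groups in the fit 1043 lower, and no adjustment 1202 lower. Leaving out 1 library gave 2114 to 14316 higher and 1 to 973 lower.

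Deviations of same-numbered replicates from their group means had no constant direction (r of -0.36 to 0.44 over pairs numbered 1 and -0.25 to 0.19 over pairs numbered 2). In groups of 2 libraries the deviations of replicates 1 and 2 mirror each other, so this check cannot exclude a pairing. The main fit used none. With the replicate number as a block 0 and 0 genes were called against Aged (3368 and 255 without adjustment), and 5933 and 399 against the other transplanted groups. List medians that turned sign with a setting included, at a mean FPKM of at least 10, extracellular matrix (-0.76), ubiquitin enzymes (-0.96), BCL2 family (-2.71), NAD metabolism (-0.03), olfactory receptors (-0.87) and keratin-associated and defensin genes (-3.01). Scaling without satellite-like genes turned those of DNA damage (0.19), proteasome (0.08), mitochondrial dynamics (0.13) and antioxidant genes (0.50). The low depth of both Aged + LRP1low libraries limits every value of short genes.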

Other observations

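Genes of the Y chromosome carried signal in the Aged + LRP1low libraries although the mice were female. Of 8 single-copy Y genes, a list chosen after seeing the data (Uty, Kdm5d, Eif2s3y, Ddx3y, Usp9y, Zfy1, Zfy2 and Sry), 7 and 6 reached an FPKM of 1 in Aged + LRP1low, 2 and 0 in Aged and 0 in each of the other 8 oocyte libraries. Ddx3y, an RNA helicase, had 2.32 and 3.73 in Aged + LRP1low, 0.860 and 0 in Aged and at most 0.0658 in the other libraries. Genes that the other transplanted libraries held below an FPKM of 1 had a median of 4.43 and 3.21 in Aged + LRP1low over 9640 autosomal genes and of 1.65 and 1.12 over 519 genes of the X chromosome. Aged replicate 1 had 3.11 on the autosomes, near Aged + LRP1low replicate 2, and 0 on the X chromosome. Young replicate 1 had 0.727 and 0.464, and both medians were 0 in Aged replicate 2.

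The protein-coding genes with the highest level in both Aged + LRP1low libraries, outside genes named by a clone or number alone and chosen after seeing the data, were Dnah8 (50.2 and 44.9), Duxf3 (68.2 and 41.4), Lars2 (48.0 and 40.9) and Sfi1 (48.0 and 40.0). Dnah8 encodes an axonemal dynein of sperm, and Duxf3 a homeobox factor whose gene family has several near-identical copies, so its reads can be split between them. Sfi1 had 73.4 and 18.2 in Aged and at most 10.4 in the other transplanted libraries, and Duxf3 had 65.5 and 11.9 in Aged and at most 2.68. Dnah8 had 41.2 and 14.1 in Aged and 9.21 to 141 in the other transplanted libraries, and Lars2 had 43.9 and 44.3 in Aged and 0.627 to 62.1, so that both reached higher values there than in Aged + LRP1low. In Aged + LRP1low 10 and 18 nuclear protein-coding genes exceeded an FPKM of 100, against 24 and 491 in Aged and 496 to 784 in the other transplanted libraries. Young replicate 1 had 11 such genes, and Young replicates 2 and 3 had 291 and 551.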
